A study of Mus musculus with 9 samples.

Results

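The p53 target genes followed here are Mdm2, Ccng1, Bax, Bbc3, Phlda3, Zmat3, Trp53inp1, Sesn1, Aen and Gtse1. They were taken from the deposited table by gene symbol, as 10 of its 23317 genes, and all 10 passed the filter on low counts. The tumour suppressor p53 is a transcription factor that is held at a low level by the ubiquitin ligase MDM2 and accumulates after DNA damage and other stress. It binds DNA at paired half-sites and switches on genes of cell cycle arrest, apoptosis, DNA repair and metabolism, Mdm2 itself among them, which closes a feedback loop. In haematopoietic stem cells (HSCs), the marrow cells from which blood lineages arise, p53 is known to restrain entry into the cell cycle and to remove cells with damaged DNA.

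The cells came from femora and tibiae of wild type mice and were sorted as HSCs, 1500 cells to a library, and their polyadenylated RNA was amplified with 12 cycles of PCR and sequenced. There were 3 groups of 3 libraries: young HSC (2 to 4 months), old HSC (20 to 24 months) and old HSC with ABC294640, an inhibitor of sphingosine kinase 2, the enzyme that turns sphingosine into sphingosine 1-phosphate. The ages were assigned to the groups by the wording of the protocol, and the sources used here do not give the inhibitor's dose, route or duration, or the sort markers. By its title, the study concerned sphingosine metabolism, ferroptosis and the function of aged HSCs. Nothing in the labels ties the libraries of a group to different animals. The p-values and intervals therefore set group differences only against the spread among these libraries, which may be technical.

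Totals ran from 16663559 to 23254225 counts per library. Kit, the receptor that is used to sort HSCs, lay between 112 and 124 CPM (counts scaled to library size) in the 9 libraries, while 2 narrower HSC markers were low, Procr at 2.33 to 4.10 CPM and Fgd5 at 0.308 to 1.37 CPM. Of the 10 HSC markers examined, none was at 0, and their summed level was 392.3 to 404.8 CPM in young, 345.9 to 364.6 in old and 354.2 to 365.9 in treated old libraries. The summed level of 8 granulocyte and monocyte markers was 29880 to 33710, 45740 to 48580 and 45450 to 46430 CPM, carried by Mpo, Elane, Prtn3, S100a8 and S100a9, while Lyz2 and Csf1r were lower in the old libraries and Ly6g was near 1 CPM throughout. Summed markers of 5 erythroid genes were 795.8 to 837.8, 355.3 to 358.8 and 401.2 to 403.7 CPM. The 4 megakaryocyte and platelet markers summed to 403.1 to 439.5, 196.8 to 223.2 and 259.9 to 272.6 CPM, mostly Pf4. The 6 T and NK cell markers summed to 1332 to 1486, 1736 to 1892 and 1901 to 2068 CPM, mostly Nkg7, while Cd4 and Cd8a were lower in both old groups. For 3 multipotent progenitor markers, Cd34, Flt3 and Cd48, the sums were 503.5 to 519, 413.1 to 424.6 and 432.4 to 452.7 CPM. For 6 B and plasma cell markers they were 335.1 to 378, 671.3 to 756.2 and 634.1 to 660.5 CPM. Igkc was the largest of these 6, while Ighm was lower in the old libraries. The Y-linked gene Ddx3y was at 0.664 to 1.18 CPM in young libraries and at 32.3 to 44.7 CPM in all others, so age and apparent donor sex cannot be told apart. All 10 p53 targets lie on autosomes, and whether their levels differ with donor sex was not tested. In bulk RNA, fewer cells of a type and less RNA per cell cannot be told apart either, and the part that these differences have in the values below was not tested.

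The promoters of 6 targets hold a match to the 10-base p53 half-site, shown here because the half-site is the DNA element that p53 reads. RefSeq windows of GRCm38.p6 from 250 bases before to 50 after a start were read for 8 of the 10 genes, in 13 windows, and Zmat3 and Trp53inp1 had none. Each line gives 30 bases, 5′ to 3′ on the gene's strand, with the match to the half-site in capitals. The half-site consensus reads the same on both strands.
Mdm2, chr10:117710925-117710954, minus strand: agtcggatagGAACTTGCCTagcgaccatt
Ccng1, chr11:40755452-40755481, minus strand: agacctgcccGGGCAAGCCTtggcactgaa
Bax, chr7:45467080-45467109, minus strand: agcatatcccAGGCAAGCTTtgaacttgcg
Sesn1, chr10:41887256-41887285, plus strand: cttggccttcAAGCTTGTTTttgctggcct
Aen, chr7:78895927-78895956, plus strand: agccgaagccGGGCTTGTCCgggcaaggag
Gtse1, chr15:85859945-85859974, plus strand: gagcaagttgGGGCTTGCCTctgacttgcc

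The match begins 186 bases before the start in Mdm2, 185 before it in Ccng1, 201 before it in Bax and 173 before it in Sesn1. In Gtse1 it begins at base 10 after the start. In Aen it lies at base 11 after 1 annotated start and 121 bases before another. The windows of Bbc3 and Phlda3 hold no match to these letters. At least 1 match occurred in 7 of the 13 windows, against 8.36% of all 32851 mouse windows of the same length. A pair of exact matches to the half-site, at most 13 bases apart, was in none of the 13 windows and in 0.0731% of all windows. Pairs in which a half-site departs from the consensus were not looked for, so the windows may still hold such pairs. The element TTTGAA, found in promoters of many genes of late cell cycle phases, was looked for on both strands. It occurred in windows of 2 targets, Bax and Aen, and in 17.9% of all windows, and in Bax it shares 2 bases with the half-site match. Matches of letters are a description and do not show binding.

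Per kilobase of exon, Mdm2 was the most abundant of the 10 targets in young HSC at 10.1 CPM per kb, followed by Ccng1 at 9.48, Sesn1 at 7.81, Gtse1 at 6.18 and Bax at 5.01. Bbc3 stood at 3.03, Aen at 2.62, Phlda3 at 1.36, Trp53inp1 at 0.972 and Zmat3 at 0.326 CPM per kb. Several neighbours in this order were not separated by their libraries. Mdm2 (9.60 to 11.1 CPM per kb) overlapped Ccng1 (8.51 to 10.7) in young HSC, and Bbc3 (2.52 to 3.32) overlapped Aen (2.38 to 2.83). In old HSC the order was the same except that Gtse1 (7.57 to 8.22 CPM per kb) stood above Sesn1 (6.87 to 7.37), with no overlap between them. In treated old HSC Gtse1 (6.80 to 7.89) was again the third, but its libraries overlapped those of Sesn1 (6.56 to 7.32). The summed level of the 10 genes was 174.5 ± 10.2 CPM in the young group, 195 ± 2.86 in the old and 187.7 ± 9.03 in the treated old group (SD, n = 3).

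**Figure D1:**
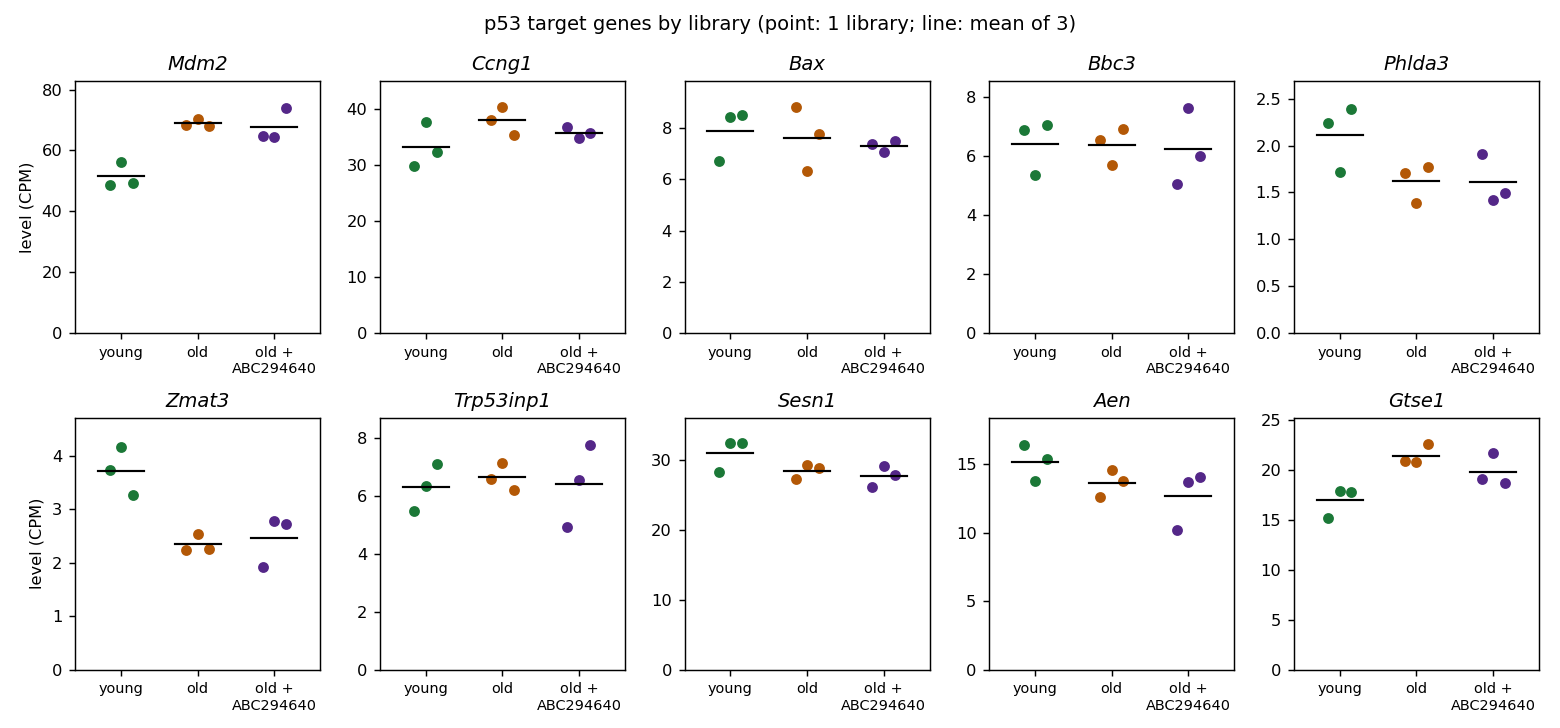
Level of each of the 10 p53 target genes in each library, in CPM on its own axis, for young, old and treated old HSC; points are libraries and lines are group means. Mdm2 and Gtse1 sit higher and Zmat3 lower in both old groups than in any young library, and the other 7 genes overlap between groups.

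Old HSC were set against young HSC to see which targets differ with age. Among the 10 targets, Mdm2 and Gtse1 rose, Zmat3 fell, and the other 7 did not pass the threshold. This threshold was an adjusted p under 0.05, with all adjusted p-values here from the quasi-likelihood test of edgeR, adjusted by Benjamini-Hochberg over the 14227 genes tested. Of all genes tested 39.4% were called, 19.6% as higher and 19.8% as lower, so that 3 of 10 is no larger a share than that of genes at large. Libraries of old HSC were all above the young ones for 22.8% of genes and all below them for 25.6%, and for treated old HSC these shares were 23.7% and 24.7%. The median log2 fold change of the 10 was -0.036, against -0.032 over all genes. With another scaling, by upper quartile, the share of higher genes among all calls went from 49.7% to 31.4%, and the median of all genes moved by -0.088 on the log2 scale.

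Mdm2 (ENSMUSG00000020184, chr10:117688875-117710758, GRCm38, minus strand) encodes the ubiquitin ligase that marks p53 for degradation. Its level was 48.8, 56.3 and 49.4 CPM in the young libraries, 68.5, 70.2 and 67.9 CPM in the old ones and 64.6, 64.6 and 74.0 CPM in the treated old ones. All 6 libraries of old mice were above all 3 young ones, and the old and treated libraries overlapped. The mean went from 51.5 ± 4.17 to 68.9 ± 1.17 CPM with age (1.34-fold; log2 fold change 0.42 ± 0.065 SE, 95% interval 0.29 to 0.56, adjusted p = 3.40e-05). Mdm2 stayed past the threshold in every alternative of the old against young comparison, including a test against a minimum fold of 1.2.

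Ccng1 (chr11:40748552-40755311) encodes cyclin G1, which binds a phosphatase that acts on MDM2. Its level was 29.9, 37.7 and 32.3 CPM in young, 38.1, 40.4 and 35.4 in old and 36.8, 34.8 and 35.8 in treated old libraries. Young replicate 2 lay inside the range of the old libraries. The difference between old and young HSC was 0.20 ± 0.078 on the log2 scale (95% interval 0.032 to 0.36) and did not pass the threshold (adjusted p = 0.0536). It passed when young replicate 2 was left out (adjusted p = 0.00383) and when old replicate 3 was left out (adjusted p = 0.0289). It also passed with RLE size factors (adjusted p = 0.0390) and with no filter on low counts (adjusted p = 0.00623). Across the edgeR fits with a single library left out, its adjusted p ran from 0.00383 to 0.188.

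Zmat3 (ENSMUSG00000027663, chr3:32334792-32366014, minus strand) encodes a zinc finger RNA-binding protein that acts on splicing. It had the lowest level per kilobase of the 10 and rests on few reads, 32.7 to 89.95 deposited counts per library. The level was 3.73, 4.17 and 3.27 CPM in the young libraries, 2.24, 2.54 and 2.26 in the old and 1.91, 2.77 and 2.72 in the treated old ones. Every young library was above every library of old mice. Zmat3 fell from 3.72 ± 0.45 to 2.35 ± 0.17 CPM with age (1.58-fold lower; log2 fold change -0.66 ± 0.20, 95% interval -1.07 to -0.25, adjusted p = 0.0114). Without young replicate 2, which was the highest, the call was lost (log2 fold change -0.56, adjusted p = 0.0509), and it was lost against a minimum fold of 1.2 (adjusted p = 0.0578).

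Gtse1 (ENSMUSG00000022385, chr15:85859745-85876573, plus strand) encodes a microtubule-associated protein of G2 and S phase that binds p53 and takes it out of the nucleus. Its level was 15.2, 17.9 and 17.8 CPM in young, 20.8, 20.8 and 22.5 in old and 19.1, 21.6 and 18.7 in treated old libraries. All libraries of old mice were above all young ones. Gtse1 rose from 16.9 ± 1.52 to 21.4 ± 1.00 CPM (1.26-fold; log2 fold change 0.34 ± 0.088, 95% interval 0.15 to 0.52, adjusted p = 0.00481). This call held with each library left out, but not against a minimum fold of 1.2 (adjusted p = 0.269).

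The 5 targets with roles in apoptosis did not pass the threshold. Bax, the pore-forming BCL2 family protein of the mitochondrial outer membrane, was at 6.72, 8.44 and 8.52 CPM in young and 8.82, 6.32 and 7.77 in old libraries (log2 fold change -0.051, 95% interval -0.33 to 0.23). Of the 31-base words in Bax transcripts 11.1% also occur in those of the overlapping gene Gm45808, so part of its counts may belong there. Bbc3, which encodes the BH3-only protein PUMA, was at 6.88, 5.35 and 7.04 CPM in young and 6.53, 5.69 and 6.92 in old libraries (log2 fold change -0.020, 95% interval -0.34 to 0.30). For both genes the young and old libraries covered nearly the same range.

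Aen, an exonuclease that degrades DNA in apoptosis, was at 16.4, 13.8 and 15.4 CPM in young and 12.6, 14.6 and 13.8 in old libraries (log2 fold change -0.15, 95% interval -0.39 to 0.080). Trp53inp1, which promotes autophagy and p53 activity, was at 5.47, 6.33 and 7.09 CPM in young and 6.59, 7.13 and 6.18 in old libraries (log2 fold change 0.083, 95% interval -0.24 to 0.40). Its sign turned with upper quartile scaling and without young replicate 1, to -0.0050 and -0.0049. Phlda3, which competes with the kinase AKT for membrane lipids, had 23 to 54 counts per library. Its level was 2.24, 1.72 and 2.39 CPM in young and 1.71, 1.39 and 1.78 in old libraries (log2 fold change -0.40 ± 0.24, 95% interval -0.90 to 0.11, adjusted p = 0.206). At this depth a change of that size in Phlda3 was not resolved.

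Sesn1 encodes a sestrin, a stress protein that restrains the growth kinase mTORC1. It was at 28.4, 32.5 and 32.5 CPM in young, 27.4, 29.3 and 28.9 in old and 26.1, 29.1 and 27.8 in treated old libraries. Young replicate 1 lay within the range of the old libraries, and the log2 fold change of -0.12 did not pass (95% interval -0.28 to 0.031, adjusted p = 0.197). With upper quartile scaling it was -0.21 and passed (adjusted p = 0.0261). The Sesn1 locus overlaps 9930024M15Rik on the same strand.

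**Figure D2:**
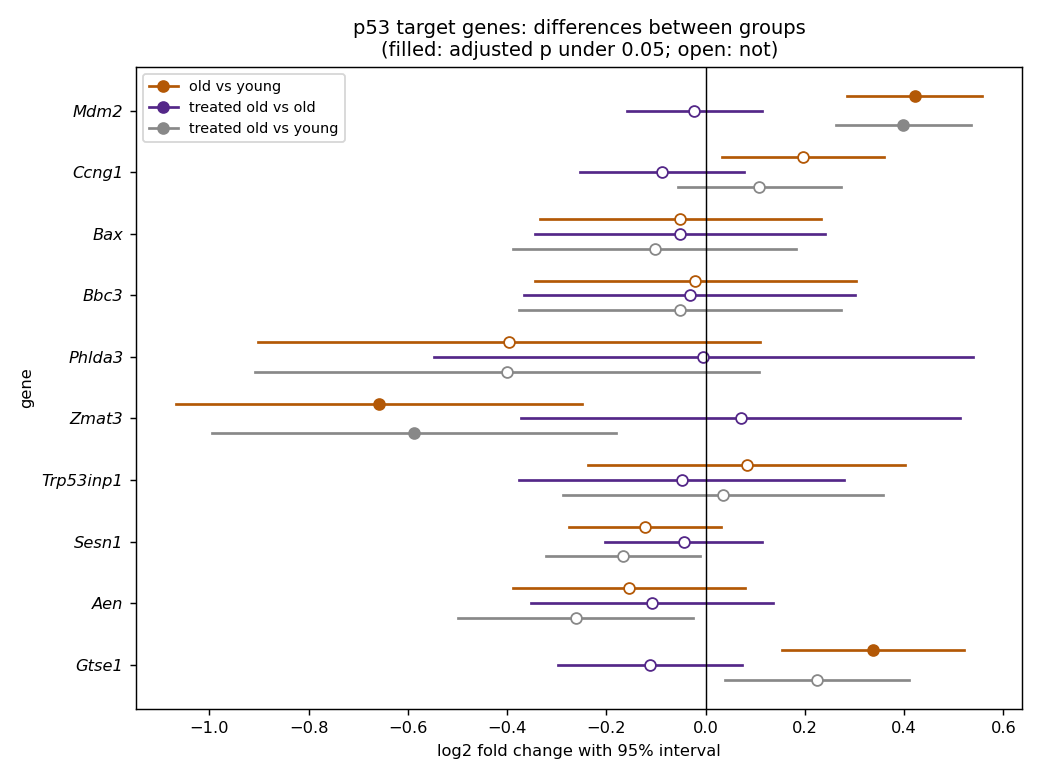
Log2 fold change of each p53 target, with its 95% interval, in old against young, treated old against old and treated old against young HSC; filled points passed an adjusted p under 0.05 and the vertical line marks no change. With age the interval of Mdm2 (0.29 to 0.56), Gtse1 (0.15 to 0.52), Ccng1 (0.032 to 0.36) and Zmat3 (-1.07 to -0.25) leaves out 0, and in treated against untreated old HSC all 10 intervals hold it. An interval that leaves out 0 amounts to an unadjusted p under 0.05, which 6796 of the 14227 genes tested had with age.

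The comparison of treated with untreated old HSC asks what the inhibitor changed in old cells. None of the 10 targets passed the threshold, none had an unadjusted p under 0.05, and DESeq2 called none. Over all genes 1.19% were called, 0.766% as higher and 0.429% as lower, and 8.83% had an unadjusted p under 0.05. The log2 fold changes of the 10 lay between -0.11 and 0.071, with a median of -0.046 against 0.0010 over all genes. Of the 10, 9 were below 0, and of the 14227 genes tested 7063 were. Several of the signs among the 10 turned when a single library was left out. The libraries of the treated and untreated old groups overlapped for all 10 genes, and did not overlap for 15.5% of all genes.

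Among these libraries, the intervals show how large a change could have gone unseen. They do not bound an effect across animals, because the libraries may not come from different animals. For Mdm2 the log2 fold change was -0.023 with a 95% interval of -0.16 to 0.11, for Sesn1 -0.044 with -0.20 to 0.11, and for Ccng1 -0.087 with -0.25 to 0.078. Gtse1 gave -0.11 with an interval of -0.30 to 0.073, and its adjusted p of 0.805 was the lowest of the 10. Wider intervals belonged to the genes with few reads. For Zmat3 the value was 0.071 with -0.37 to 0.51, and for Phlda3 -0.0047 with -0.55 to 0.54.

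The treated levels of the remaining genes stayed near the untreated ones. Bax was at 7.37, 7.08 and 7.50 CPM with the inhibitor (log2 fold change -0.052, 95% interval -0.34 to 0.24). Bbc3 was at 5.05, 7.64 and 6.01 CPM, a wider spread than in untreated old HSC (log2 fold change -0.032, 95% interval -0.37 to 0.30). Trp53inp1 was at 4.93, 6.53 and 7.76 CPM and Phlda3 at 1.91, 1.42 and 1.49 CPM. Aen was at 10.2, 13.7 and 14.1 CPM (log2 fold change -0.11, 95% interval -0.35 to 0.14). Treated replicate 1 was the lowest of all 9 libraries for Aen, Bbc3, Trp53inp1, Zmat3 and Sesn1.

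Treated old HSC were also set against young HSC, a comparison that shares its libraries with both others. Mdm2 rose and Zmat3 fell, and the other 8 did not pass, where 37.6% of all genes were called (19.1% higher and 18.5% lower). Mdm2 was 1.32-fold higher (log2 fold change 0.40 ± 0.065, adjusted p = 7.43e-05), beside 0.42 in untreated old HSC. Zmat3 was 1.503-fold lower (log2 fold change -0.59 ± 0.20, adjusted p = 0.0224), beside -0.66. That call was lost without young replicate 2 (adjusted p = 0.0857) and without treated replicate 1 (adjusted p = 0.123). Gtse1 had a log2 fold change of 0.22 with an adjusted p of 0.0523, beside 0.34 in untreated old HSC. It passed when young replicate 2 (adjusted p = 0.0455), young replicate 3 (0.0485) or treated replicate 3 (0.0474) was left out. Sesn1 at -0.17 (adjusted p = 0.0833) and Aen at -0.26 (adjusted p = 0.0753) had intervals below 0, from -0.32 to -0.012 and from -0.50 to -0.025. Such an interval amounts to an unadjusted p under 0.05, which 6574 of the 14227 genes tested had in this comparison. Sesn1 passed without young replicate 1 (adjusted p = 0.0189), Aen without treated replicate 3 (0.0473) and Ccng1 without young replicate 2 (0.0386). Across the edgeR fits with a single library left out, the adjusted p reached 0.206 for Gtse1, 0.326 for Sesn1, 0.434 for Aen and 0.737 for Ccng1.

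The regulators of p53 give the upstream side of the same pathway. Trp53, which encodes p53, was at 212.7 ± 9.93 CPM in young, 216.5 ± 4.78 in old and 215.6 ± 4.02 in treated old HSC, and the age difference was 0.026 on the log2 scale (adjusted p = 0.688). Its sign turned with upper quartile scaling (-0.063) and with a stricter filter on low counts (-0.019). Of 19 tested regulators 2 rose and 4 fell with age, and their median log2 fold change was 0.011, where 39.4% of all genes were called and their median was -0.032. Cdkn2a, which encodes the MDM2 inhibitor ARF, and Trp73 were too low to test. The number of falling regulators was 1 without young replicate 2 and 2 without young replicate 3 or without old replicate 3. With upper quartile scaling 1 rose and 5 fell.

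Among the regulators of smallest p, Wrap53, which encodes a factor that brings telomerase to Cajal bodies, rose from 22.8 ± 1.03 to 29.3 ± 1.26 CPM (0.36 as log2 fold change, adjusted p = 0.000520). Rchy1, the ubiquitin ligase PIRH2 that acts on p53, fell from 54.6 ± 0.97 to 45.6 ± 1.05 CPM (-0.26 as log2 fold change, adjusted p = 0.00108). Of the 31-base words of Rchy1 19.7% are shared with other genes, and Thap6 overlaps it on the other strand. Atm, the kinase that senses DNA double-strand breaks, fell from 21.5 ± 2.87 to 17.0 ± 1.13 CPM (-0.33 as log2 fold change, adjusted p = 0.00922). The call on Atm was lost without young replicate 2 (adjusted p = 0.0892) and without old replicate 3 (adjusted p = 0.0659). Rpl5, a ribosomal protein that binds MDM2, rose from 81.2 ± 0.52 to 93.8 ± 2.53 CPM (log2 fold change 0.21), but 50.4% of its 31-base words occur in other genes, so its value is uncertain, and the call was lost with upper quartile scaling (adjusted p = 0.0509). Mdm4, the MDM2 paralog that blocks p53 activity, was at 20.3 ± 0.21 and 22.3 ± 2.64 CPM and did not pass (adjusted p = 0.214). With the inhibitor none of the 19 regulators passed, and 2 had an unadjusted p under 0.05. They were Rpl11, another ribosomal protein that binds MDM2, with 18.5% of its 31-base words shared with other genes (log2 fold change 0.14, unadjusted p = 0.0129), and Atm (0.23, unadjusted p = 0.0286).

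The response of p53 reaches well beyond the 10, and 40 further targets were measured. With age 15 rose and 7 fell, with a median log2 fold change of 0.051, where 39.4% of all genes were called. With upper quartile scaling 11 rose and 9 fell, and without young replicate 3 the number that fell was 4. Cdkn1a, which encodes the cell cycle inhibitor p21 and is the best known target, was higher in old HSC, at 57.9 ± 5.25 against 49.98 ± 1.97 CPM (0.21 ± 0.068 as log2 fold change, adjusted p = 0.0200). That call was lost without young replicate 2 (adjusted p = 0.0546) and without old replicate 1 (adjusted p = 0.112), with upper quartile scaling (0.163) and with the stricter filter (0.0599).

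The 4 further targets of smallest p were Xpc, Gadd45a, Tnfrsf10b and Plk3. Xpc, the damage sensor of nucleotide excision repair, rose from 99.8 ± 1.08 to 175 ± 5.21 CPM (0.81 ± 0.045 as log2 fold change, adjusted p = 1.31e-11). Gadd45a, a stress-induced growth arrest gene, rose from 30.8 ± 0.86 to 56.4 ± 2.79 CPM (0.87 ± 0.062 as log2 fold change, adjusted p = 5.58e-10). Of the 31-base words of Gadd45a 17.0% are shared with other genes, and E230016M11Rik overlaps it on the other strand. Plk3, a stress-responsive kinase, rose from 9.30 ± 0.62 to 16.8 ± 1.71 CPM (0.85 as log2 fold change, adjusted p = 1.55e-06). Tnfrsf10b, the death receptor for the ligand TRAIL, fell from 18.1 ± 1.102 to 10.6 ± 0.45 CPM (-0.77 as log2 fold change, adjusted p = 1.32e-06). These 4 calls held under each alternative run for old against young HSC.

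With the inhibitor 1 of the 40 further targets was called, where 1.19% of all genes were called and 0.766% rose. Rps27l, a ribosomal protein S27 paralog, was at 598 ± 30.1 CPM in young, 531 ± 55.1 in old and 637 ± 29.2 in treated old HSC. It fell with age (log2 fold change -0.17, adjusted p = 0.0269) and rose with the inhibitor (log2 fold change 0.26 ± 0.059, adjusted p = 0.0311). Old replicate 3, at 593 CPM, lay inside the range of the young libraries, and the fall with age was not followed under the alternatives. The comparisons share the old libraries. The rise with the inhibitor was lost without old replicate 1 (adjusted p = 0.185), old replicate 2 (0.202), treated replicate 1 (0.173) or treated replicate 2 (0.245), and 16.1% of the 31-base words of Rps27l are shared with other genes. Plk3 had a log2 fold change of -0.27 with the inhibitor (unadjusted p = 0.0136, adjusted p = 0.326) and Gadd45a one of -0.15 (unadjusted p = 0.0232, adjusted p = 0.420).

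**Figure D3:**
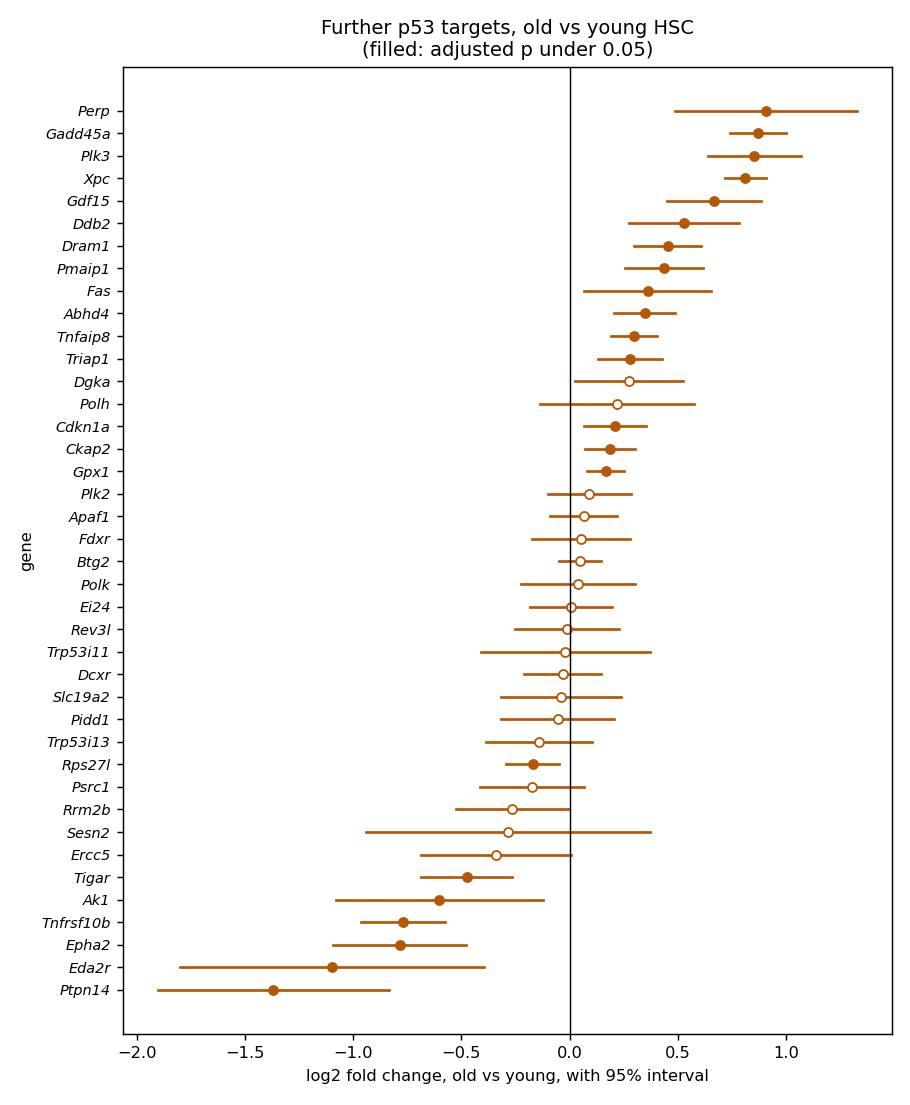
Log2 fold change of the 40 further p53 targets in old against young HSC, ordered by value, with 95% intervals; filled points passed an adjusted p under 0.05. The 15 that rose reach 0.91 (Perp) and the 7 that fell reach -1.37 (Ptpn14).

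The BCL2 family holds the partners of Bax and Bbc3 at the mitochondrion. Of 13 tested members 4 rose and 2 fell with age, with a median log2 fold change of 0.084, where 39.4% of all genes were called. The identifier listed as Bcl2l2 is that of Pabpn1, a poly(A)-binding protein gene, in the annotation, and without it 4 of 12 rose and 2 fell, with a median of 0.12. With upper quartile scaling 2 rose and 3 fell. Without young replicate 1, young replicate 3 or old replicate 3, 1 fell. Mcl1, which blocks BAX and BAK and is needed for HSC survival, rose from 69.4 ± 3.85 to 88.2 ± 1.35 CPM (0.35 ± 0.051 as log2 fold change, adjusted p = 2.13e-05). Bcl2, another protein that blocks apoptosis, fell from 30.3 ± 1.92 to 22.2 ± 1.14 CPM (-0.45 ± 0.074 as log2 fold change, adjusted p = 6.69e-05). Pmaip1, which encodes the BH3-only protein NOXA that antagonises MCL1 and is itself a p53 target, rose from 17.3 ± 1.29 to 23.4 ± 1.38 CPM (0.44 as log2 fold change, adjusted p = 0.000509). Pmaip1 belongs to the further targets as well. With the inhibitor none of the 13 passed. Hrk, a BH3-only gene below 1 CPM, alone had an unadjusted p under 0.05 (0.04).

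Paralogs of the 10 targets were looked at to see whether family members moved alike. Of 14 tested, 1 rose and 3 fell with age (median log2 fold change -0.10), where 39.4% of all genes were called, and none passed with the inhibitor, where 1.19% were. With upper quartile scaling 0 rose and 5 fell, and without old replicate 1, 2 rose. Of the 4 paralogs of Zmat3, Zmat1 fell from 46.0 ± 6.32 to 21.999 ± 1.804 CPM (log2 fold change -1.06) and Zmat4 from 1.67 ± 0.44 to 0.49 ± 0.17 CPM (-1.73). Zmat1 lies on chromosome X, and apparent donor sex differed with age for every gene compared here. The part of donor sex was not tested. Zmat2 and Zmat5 had log2 fold changes of -0.077 and -0.046 and did not pass. Isg20, an interferon-induced exonuclease related to Aen, fell from 39.7 ± 3.27 to 21.8 ± 2.61 CPM (log2 fold change -0.87), while Isg20l2 was at 0.095 and did not pass. Ccni, a cyclin related to Ccng1, rose from 76.4 ± 4.76 to 89.2 ± 4.56 CPM (log2 fold change 0.23), with 21.5% of its 31-base words shared, and the call was lost with upper quartile scaling (adjusted p = 0.07004). Ccng2 was at -0.12, Mdm4 at 0.14, Phlda1 at 0.20, Phlda2 at -0.23, Trp53inp2 at 0.19, Sesn2 at -0.29 and Sesn3 at -0.21, and none of these passed.

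Gtse1 is made in the G2 phase, so genes of G2 and mitosis were set beside it. Of 26 such genes 20 rose and 1 fell with age, with a median log2 fold change of 0.26, beside 0.34 for Gtse1, where 19.6% of all genes rose and 19.8% fell and the median over all genes was -0.032. With upper quartile scaling 16 rose and 2 fell, and against a minimum fold of 1.2, 6 rose. Ccnb1, the cyclin that drives entry into mitosis, rose from 277 ± 5.67 to 397 ± 3.54 CPM (log2 fold change 0.52), with 27.8% of its 31-base words shared with other genes. Aurka, the mitotic spindle kinase, rose from 89.0 ± 3.79 to 122 ± 1.84 CPM (log2 fold change 0.46). Kif20a, a kinesin of cell division, rose from 49.6 ± 2.25 to 67.9 ± 1.45 CPM (log2 fold change 0.45), with 26.7% shared, and the cyclin Ccnb2 rose from 225 ± 3.87 to 282 ± 7.03 CPM (log2 fold change 0.32). With the inhibitor none of the 26 passed, and 1 of them, Bub1b, had an unadjusted p under 0.05 (0.0424).

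**Figure D4:**
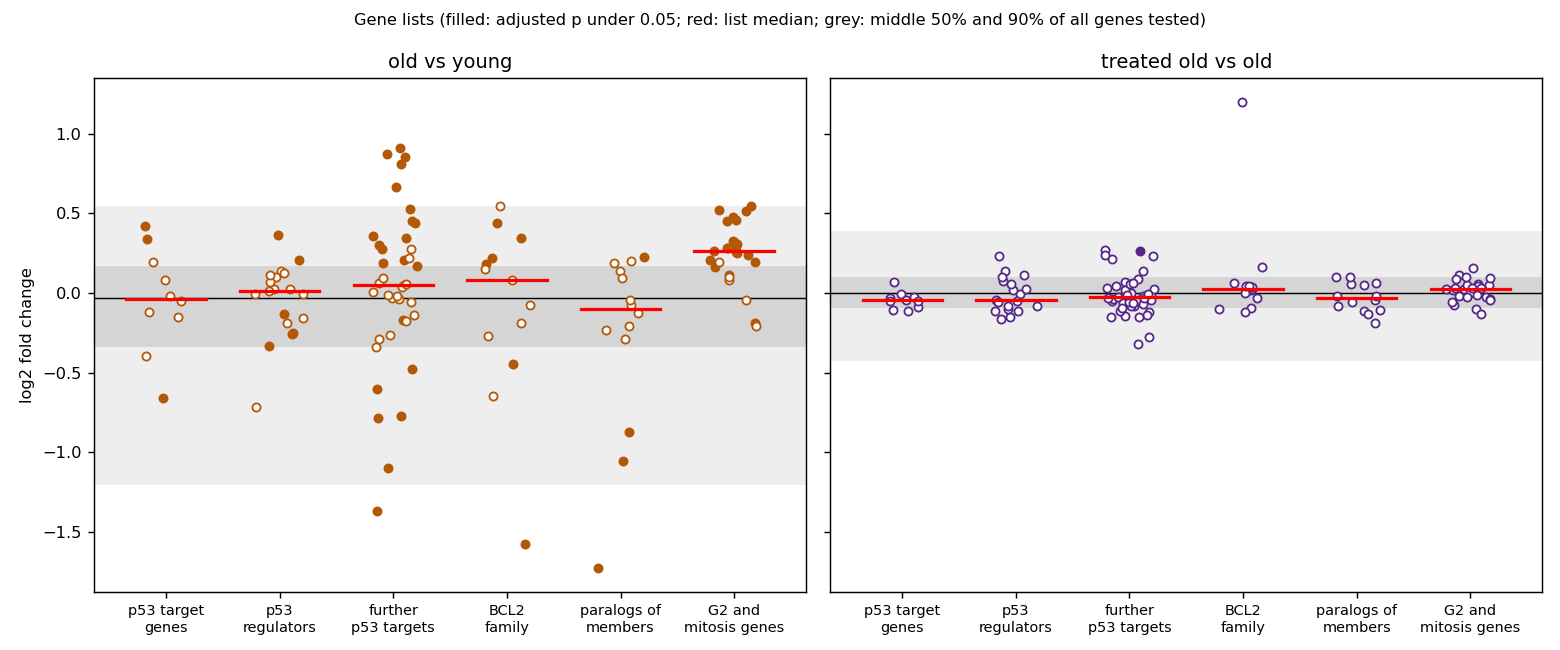
Log2 fold change of each gene of the 10 p53 targets and of the 5 related lists, in old against young HSC and in treated against untreated old HSC; points are genes, filled where the adjusted p was under 0.05, the red line in each list is its median, the thin line is the median of all genes tested, and grey bands hold the middle 50% and 90% of them. With age the medians run from -0.10 (paralogs) to 0.26 (G2 and mitosis genes), and with the inhibitor from -0.046 to 0.026.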

How the data were processed

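The authors deposited expected counts, that is, estimated counts per gene and library that need not be whole. Of the non-zero values 56.0% were whole, and all were rounded before testing. The submitters' processing notes list STAR 2.6.1d, HTSeq 0.10.0, Trim Galore 0.6.2, edgeR 3.24.3 and the build mm10, and state no roles. What made counts fractional, and whether strand was used, is not given in these notes.

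Groups came from the labels, which give no batch. Genes were filtered by group (filterByExpr), scaled by TMM and tested with edgeR 4.0.16 in R 4.3.3 (glmQLFit, glmQLFTest) in 1 fit of 9 libraries with group as the only term, with Benjamini-Hochberg adjustment over 14227 genes. The common biological coefficient of variation was 0.0583. Levels are CPM from TMM-scaled library sizes, as mean ± SD (n = 3). The script was tested on simulated data. Gene positions are from GENCODE mouse release M21, which held all 23317 identifiers, and promoter windows from RefSeq. DESeq2 1.42.0 and the other alternatives below were also run. Figures were drawn with matplotlib 3.10.9 (Python 3.11.15).

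The members and lists were chosen with earlier results of these data known. Named genes were the members, Trp53, Cdkn1a, up to 4 genes of smallest p per list and comparison, the paralogs tested, and the tested gene with the highest correlation to each member. Not every gene the rule named is described.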

Additional observations from a re-analysis of the deposited data

How the results depend on the processing

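In old against young HSC, Mdm2 kept its call under every alternative run. Upper quartile scaling gave 2 p53 targets that fell and 1823 genes that rose. A stricter filter, at least 5 CPM in 3 libraries, left Zmat3 and Phlda3 untested and so 0 targets that fell. A minimum fold of 1.2 left 1 target that rose and 0 that fell, with 898 genes higher and 1347 lower, and the calls on Wrap53, Rchy1, Rpl5, Atm, Cdkn1a, Mcl1, Bid, Ccni and Ccnb2 were lost. Leaving Pabpn1 out of the BCL2 family, an alternative chosen after seeing the data, moved no count of that list. Without single libraries 0 to 1 targets fell.

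In treated against untreated old HSC no target passed under any alternative. Over all genes, no filter gave 219 rises and 114 falls, a fit of the 2 groups alone 164 and 96, and the minimum fold 2 and 13. Leaving out single libraries gave 17 to 121 rises and 31 to 55 falls, and the counts moved by over 1.5 times without old replicate 1 or 2 and without treated replicate 1 or 2. Where 2 libraries of a group were left, the spread was taken from all libraries kept.

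In treated old against young HSC, RLE size factors and no filter each gave 2 targets that rose. Upper quartile scaling gave 3 that fell and 1633 genes that rose, with 30% of calls higher against 50.8%. The stricter filter gave 2 targets (Sesn1 and Aen) and 1732 genes that fell, and the minimum fold 0 targets that fell, 801 genes that rose and 1386 that fell. Without single libraries 1 to 3 targets rose and 0 to 2 fell. The cause of these changes was not tested.

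The labels do not say whether replicate numbers pair the libraries, and the correlations of deviations from group means do not settle it. Same-numbered libraries of different groups had values between -0.08 and 0.13. Between young and old libraries the same-numbered values were 0.063, 0.13 and 0.064, above the differently numbered ones (-0.096 to 0.035). Same-numbered values that involve a treated library were all negative. With the replicate number as a block, 3 targets rose with age (Ccng1 also, adjusted p = 0.0457), and 2 rose in treated old against young HSC (Gtse1 also, adjusted p = 0.0489).

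Signs of small differences turned. With age Trp53inp1 went to -0.0050 and Trp53 to -0.063 with upper quartile scaling, Trp53 to -0.019 with the stricter filter, and Bbc3 to 0.024 with no filter. In treated old against young HSC Trp53inp1 went to -0.060 with upper quartile scaling and -0.023 with the stricter filter. Without single libraries the log2 fold changes with age ran from -0.16 to 0.094 for Bax, -0.12 to 0.077 for Bbc3 and -0.0049 to 0.19 for Trp53inp1. With the inhibitor they ran from -0.093 to 0.0064 for Mdm2, -0.20 to 0.021 for Aen, -0.18 to 0.066 for Bax, -0.20 to 0.092 for Bbc3, -0.15 to 0.067 for Phlda3, -0.22 to 0.10 for Trp53inp1 and -0.018 to 0.22 for Zmat3. For Cdkn1a they ran from -0.090 to 0.043 and for Trp53 from -0.027 to 0.0076. In treated old against young HSC they ran from -0.20 to 0.087 for Bbc3 and -0.13 to 0.20 for Trp53inp1. Depth limits the genes with few reads, Phlda3 and Zmat3, and amplified reads are not independent molecules.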

Other observations

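Other targets of p53 with age differences outside those described include the adhesion protein gene Perp, which rose from 2.80 ± 0.90 to 5.26 ± 0.79 CPM with age (log2 fold change 0.91, adjusted p = 0.00134). Gdf15, a secreted stress cytokine, rose from 12.2 ± 1.03 to 19.4 ± 1.98 CPM (log2 fold change 0.67), and Ddb2, a sensor of ultraviolet damage, from 9.20 ± 1.70 to 13.3 ± 1.27 CPM (0.53). The metabolic target Tigar fell from 20.8 ± 2.34 to 15.0 ± 0.97 CPM (log2 fold change -0.48), and the phosphatase gene Ptpn14 fell from 3.17 ± 0.08 to 1.24 ± 0.26 CPM (-1.37). These 5 genes were chosen after their values were seen, and each adjusted p is from edgeR's quasi-likelihood test.

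The gene whose level followed each target most closely was found by Pearson's r of log2 CPM over the 9 libraries, among the tested genes with a mean of at least 10 CPM. The 9 points share their groups and the age difference, so the values are a description. Each r is also the highest among 7872 or 7873 genes, and so wide a search on 9 points can itself yield high values. For Mdm2 it was Ndc80, a kinetochore gene, with r = 0.988. For Zmat3 it was Fdxacb1 (0.981), for Phlda3 Mms19 (0.986), for Gtse1 Nkap (0.956), for Ccng1 Commd8 (0.962) and for Sesn1 Relch (0.960). For Trp53inp1 it was St8sia4 (0.949), for Bax Iqcb1 (0.921), for Aen Wdr11 (0.915) and for Bbc3 Ube2g2 (0.895).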
